A study of Mus musculus with 12 samples.

Results

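Out-of-frame rearrangements are *IGH* transcripts in which the J segment is not read in the same frame as the V segment. In each table of unique sequences, a sequence counted as out of frame when it had 3 or more reads and no undetermined base, when residue 23 of its first frame was cysteine with no J motif WG[QAT]GT after it in that frame, and when the J motif followed by T, L or S lay in frame 2 or 3. Members were thus chosen by their reading frame and by reaching 3 reads, and neither of these is a finding here. Read numbers are compared only with in-frame sequences under the same read limits. The rule picked 1556 of the 102277 sequences with 3 or more reads and no undetermined base, which came from 757196 unique sequences in all. The comparison was with the 97354 sequences that met the same read limit and held the J motif in the frame of the cysteine. A further 2040 sequences lacked the cysteine and 1327 lacked the motif. In 8 of the 1556, 1 in control SMO replicate 4 and 7 in control SMO replicate 9, the J motif lay ahead of residue 23, so these have no Cys-to-Trp distance and 1548 do.

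The sequences came from B cells sorted from spleens of female *MRL-lpr* mice aged 14 weeks, a lupus-prone strain that lacks functional Fas in every group used here. Mice received either control SMO (6 libraries) or LFPRLR SMO (6 libraries), a splice-modulating morpholino oligomer that lowers the long form of the prolactin receptor, by subcutaneous pump. Both oligomers reach the whole animal, so an effect on B cells need not start in B cells. *IGH* transcripts were amplified from RNA with J558 VH and Cμ primers, which leaves other VH families and switched isotypes outside the measurement. Markers of B cells cannot be checked in amplicons of a single locus.

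A VH exon is assembled by joining D to J and then V to DJ, with bases lost and added at each join, and only joins that keep V and J in a common frame can encode a heavy chain. A B cell that makes an out-of-frame join on the first allele can still mature by rearranging the other, and it then carries the failed join as a passenger. Such joins are therefore known as a record of rearrangement that has not been selected for what the protein does, although their transcripts are commonly degraded because they run into early stop codons.

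The 6 out-of-frame junctions with the most reads are shown first, since they hold 1143 of the 7230 out-of-frame reads (15.8%; 344 of 5531 reads, 6.22%, without control SMO replicate 8). They are written from the cysteine codon to the tryptophan codon of J, both in capitals, 5′ to 3′.
O1: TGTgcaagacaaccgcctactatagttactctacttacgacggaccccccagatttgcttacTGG
O2: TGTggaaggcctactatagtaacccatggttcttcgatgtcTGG
O3: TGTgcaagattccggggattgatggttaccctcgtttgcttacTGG
O4: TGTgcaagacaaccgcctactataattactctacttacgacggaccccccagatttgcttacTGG
O5: TGTggaaggccggaacttttacTGG
O6: TGCcctcttagacttacTGG
S2: TGTacaaactgggggactacTGG
S3: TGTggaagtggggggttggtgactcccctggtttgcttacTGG
I1: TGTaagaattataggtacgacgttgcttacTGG
S2 and S3 are shown with O5 because these 3 junctions were out-of-frame in 3 libraries each, the most for any junction. I1 is the commonest in-frame junction, with 20238 reads over 11 libraries. O1 had 460 reads, 457 of them in control SMO replicate 8 and 3 in control SMO replicate 4. O4 differed from O1 at 1 base and had 161 reads, all in control SMO replicate 8. O2 had 178 reads in control SMO replicate 8, and O3 had 162 reads in LFPRLR SMO replicate 8. O5 had 89 reads in control SMO replicate 5, 3 in control SMO replicate 7 and 3 in control SMO replicate 8. O6 had 83 reads in LFPRLR SMO replicate 3 and 4 in LFPRLR SMO replicate 7. None of the 6 had an in-frame junction within 2 inserted or deleted bases in its own libraries. The single out-of-frame sequence with the most reads, 260 in control SMO replicate 8, carried O1 and is given whole, with the cysteine and tryptophan codons in capitals.
Amplicon of O1: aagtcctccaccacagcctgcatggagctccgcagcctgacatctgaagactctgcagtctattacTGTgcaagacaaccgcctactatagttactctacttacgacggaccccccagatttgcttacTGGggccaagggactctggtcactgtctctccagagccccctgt

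This amplicon is shorter than usual beyond the J motif. From the base after the tryptophan codon to the end at the Cμ primer, 85 bases were the rule: 1412 of the 1556 out-of-frame sequences had this length, and of the in-frame sequences 0.383% had another. In 121 out-of-frame sequences, from 11 libraries and 71 distinct junctions, the stretch was 41 or 39 bases long. These lengths were found in 7.78% of the out-of-frame and in 0.0493% of the in-frame sequences. Control SMO replicate 8 held 59 of the 121, and without this library the shares were 4.50% and 0.0397%. The J3 form is printed below from the tryptophan codon on, first at full length with the 44 bases that the 41-base form lacks in capitals, then the 41-base and the 39-base forms as found in 32 and 12 out-of-frame sequences.
Full J3 to Cμ stretch: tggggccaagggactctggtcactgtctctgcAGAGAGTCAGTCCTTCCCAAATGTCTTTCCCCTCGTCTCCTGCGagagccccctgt
41-base form: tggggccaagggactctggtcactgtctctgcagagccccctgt
39-base form: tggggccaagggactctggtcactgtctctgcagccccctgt
The missing bases begin near the join of J and Cμ and take in the start of Cμ. Repeated bases at the ends let the gap be placed up to 4 bases further 3′ for the 41-base form and 2 for the 39-base form. The capitals show the most 5′ placement, so whether any base of J is missing is not settled here.

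The length of the gap and the frame of the junction went together. Out-of-frame distances leave a remainder of 1 or 2 bases after whole codons, and a gap of 44 bases leaves 2 while a gap of 46 leaves 1, so a matching pair puts the Cμ end back in the frame of the V cysteine. The 41-base form was found in 95 of 810 sequences with remainder 2 (11.7%, 95% Wilson interval 9.69% to 14.1%) and in 3 of 738 with remainder 1 (0.407%, 0.138% to 1.19%). The 39-base form showed the reverse, with 22 of 738 at remainder 1 (2.98%, 1.98% to 4.47%) and 1 of 810 at remainder 2 (0.123%, 0.0218% to 0.696%). Without control SMO replicate 8, the 41-base form was in 43 of 690 at remainder 2 (6.23%) and 2 of 679 at remainder 1 (0.295%), and the 39-base form in 17 of 679 at remainder 1 (2.50%) and 0 of 690 at remainder 2. Of in-frame sequences, where either gap would shift Cμ out of frame, 34 and 14 of 97354 had the 41- and 39-base forms. Intervals here and below cover counting error only, because the reads carry no molecular identifiers and sequences of a clone are not independent. These counts were noticed in the data and are given with no test.

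**Figure D1:**
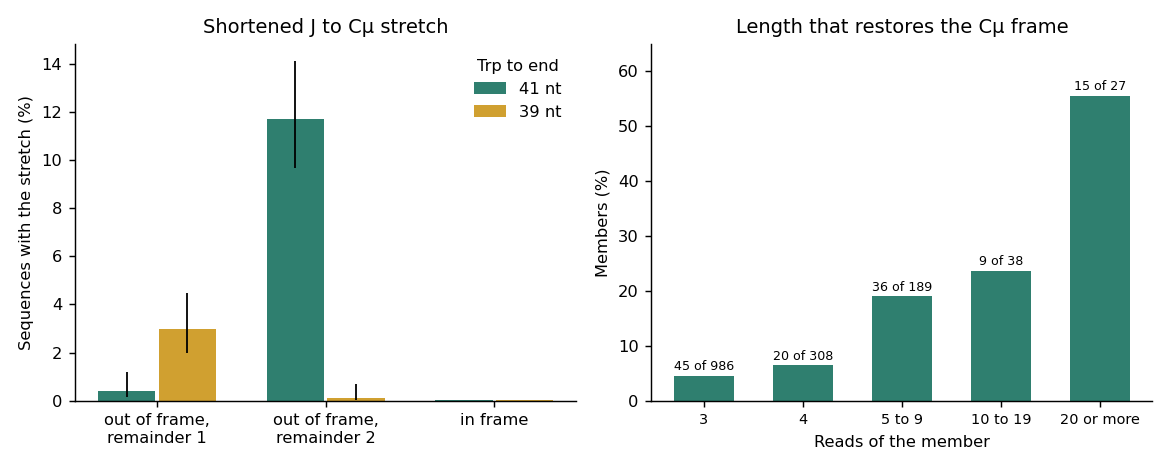
The left panel plots the share of sequences (%) whose stretch from the tryptophan codon to the amplicon end was 41 or 39 bases, for out-of-frame sequences with remainder 1 (n = 738) or 2 (n = 810) and in-frame sequences (n = 97354), with 95% Wilson intervals as bars. The right panel plots the share of out-of-frame sequences whose length restored the Cμ frame against the reads of the sequence; it runs from 45 of 986 at 3 reads to 15 of 27 at 20 or more.

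Counting every other length too, 125 of the 144 out-of-frame sequences with an altered stretch had a total length that restored the Cμ frame, against 66 of 373 altered in-frame sequences that kept it. The restored sequences held 1555 of 7230 out-of-frame reads (21.5%), and without control SMO replicate 8 they held 539 of 5531 (9.75%). Their share was higher among sequences with more reads, from 4.56% at 3 reads and 6.49% at 4 reads to 19.05% at 5 to 9, 23.7% at 10 to 19 and 55.6% at 20 or more. Without that library the share ran from 3.09% at 3 reads and 3.91% at 4 to 12.3% at 5 to 9, 16% at 10 to 19 and 54.5% at 20 or more, where it rested on 6 of 11 sequences. Of the 125 restored sequences, 124 had no stop codon in the cysteine frame anywhere in the amplicon, against 920 of the 1404 out-of-frame sequences of full length (65.5%). Part of this contrast was set in advance, since restored sequences read the Cμ end in the same frame as in-frame sequences and most are shorter. The 125 came from 74 distinct junctions and 58 of them from control SMO replicate 8, so they are not independent. Among the 6 junctions printed above, most reads of O1, O2, O4 and O6 had the 41-base form and most reads of O5 the 39-base form, while O3 was of full length throughout. O1 still had 38 reads of full length in control SMO replicate 8 and O6 had 34 in LFPRLR SMO replicate 3, so a junction occurred with both ends.

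Restored sequences were found in each of the 11 libraries that had out-of-frame sequences, but unevenly. In the control SMO group they numbered 11, 2, 6, 7, 58 and 13 in replicates 3, 4, 5, 7, 8 and 9. In the LFPRLR SMO group they numbered 10, 4, 10, 2 and 2 in replicates 3, 4, 5, 7 and 8. The 58 in control SMO replicate 8 came mostly from 1 family. In this library 51 of the 179 out-of-frame sequences had a junction of 59 bases within 3 mismatches of O1, over 9 distinct junctions, and these held 774 reads (45.6% of its out-of-frame reads). Of the 51, 41 had the 41-base form and 9 the full length. Without the family this library had 17 restored sequences among 128. J3 held 85 of the 121 sequences with a short form, and 14.6% of all out-of-frame J3 sequences had one, against 4.17% for J1, 5.02% for J2 and 1.88% for J4. Without the 59-base family, 44 of 530 J3 sequences had a short form (8.30%).

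The share of out-of-frame sequences was compared between treatments because non-functional rearrangements were part of the study's question. Libraries held 130635 to 227202 reads, apart from LFPRLR SMO replicate 6 with 627. In the control SMO group the share ran from 0.560% (Wilson 0.405% to 0.775%) in replicate 5 over a median of 1.34% to 2.51% (2.25% to 2.80%) in replicate 9. In the LFPRLR SMO group it was 1.87% in replicate 3, 1.48% in replicate 4, 0.944% in replicate 5, 2.19% in replicate 7 and 1.44% in replicate 8. LFPRLR SMO replicate 6 had 0 of 13 sequences, where the limit of 3 counts allows a share of up to 23.1%, and entered no test. The groups overlapped over most of their range, and the spread within a group was wider than the gap between them: the medians differed by 0.14 percentage points (two-sided exact Mann–Whitney *U* test, n = 6 and 5, p = 0.931, Benjamini-Hochberg adjusted over 8 comparisons 1). Of reads, 0.245% to 1.30% were out of frame in the control SMO group and 0.279% to 1.06% in the LFPRLR SMO group (exact p = 1). Libraries of a group that share 30 or more of their 50 commonest sequences, control SMO replicates 5 and 7, control SMO replicates 4 and 8 and LFPRLR SMO replicates 4 and 5, each entered as 1 library in one of the alternatives given in the closing section. A further 4 pairs shared 10 to 12 of the 50 and were left as they were: control SMO replicate 4 with control SMO replicates 5 and 7 and with LFPRLR SMO replicate 6, and LFPRLR SMO replicates 3 and 4.

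**Figure D2:**
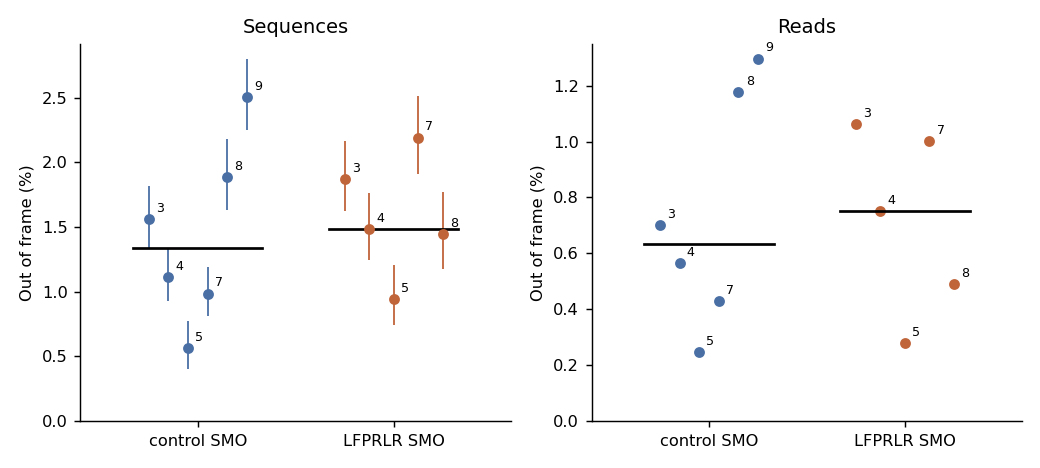
Out-of-frame share (%) of sequences with 3 or more reads, left, and of their reads, right, for the 6 control SMO and 5 LFPRLR SMO libraries with enough sequences. Points are libraries with their replicate number, bars on the left are 95% Wilson intervals and black lines are medians, 1.34% and 1.48% for sequences; the groups overlap in both panels.

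The composition of the out-of-frame set also did not differ between treatments at the adjusted threshold of 0.05. J2 made up 20.1% to 47.2% of it in the control SMO group (median 27.5%) and 30.3% to 36.3% in the LFPRLR SMO group (median 33.2%; exact Mann–Whitney p = 0.247). The share with 5 or more reads had medians of 17.1% and 11.1% (exact p = 0.329), and mean distance had medians of 33.4 and 33 nucleotides (exact p = 1). With these numbers of libraries the test could reach an exact p of 0.00433, and each adjusted p in this family was 1.

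Out-of-frame sequences were less abundant than in-frame ones. Over all libraries they made up 3.65% of sequences read once, 3.14% of those with 2 reads and 2.43% of those read 3 times, then 1.86% at 4 reads, 0.822% at 5 to 9, 0.367% at 10 to 19 and 0.340% at 20 or more. Just outside the read limit lay 3953 out-of-frame sequences with 2 reads, and just inside it 992 with 3, which were 63.8% of the set, against 40.9% of the in-frame set. The most-read out-of-frame sequence had 260 reads and the most-read in-frame sequence 8529. The share with 5 or more reads was 6.53% to 40.2% over libraries (mean 17.9% ± 11.2, SD, n = 11) against 32% to 59.0% in frame (43.5% ± 10.6). It was lower out of frame in 11 of 11 libraries, with a mean difference of -25.54 percentage points (SD 4.53; two-sided exact sign-flip permutation test, n = 11, p = 0.000977, the smallest it can give; adjusted over 9 comparisons 0.00439). Counted once per library, distinct junctions were out of frame in 2.36% of cases: 1371 against 56693 in frame.

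**Figure D3:**
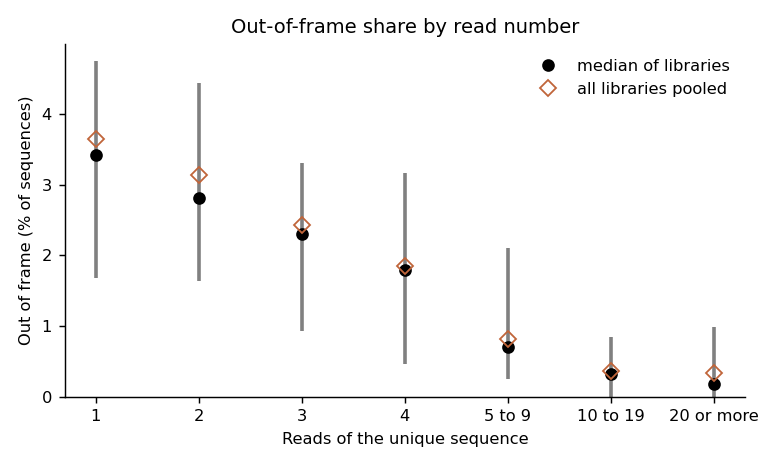
Share of sequences that were out of frame (%) against the number of reads of the unique sequence. Filled points are the medians over libraries with at least 100 sequences in the bin, grey lines run from the lowest to the highest library, and open diamonds pool all libraries; the pooled share falls from 3.65% at 1 read to 0.340% at 20 or more.

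For 3 of 4 recurring inner stretches, in-frame junctions held the stretch almost always in a single phase, and out-of-frame junctions held it in all 3. The files hold no D names, so D was followed by the 4 commonest stretches of 10 bases inside the in-frame junctions, at least 6 bases from the cysteine and 12 from the tryptophan codon, and the phase is the start of the stretch counted from 0 at the first base after the cysteine codon, as a remainder after whole codons.
Inner stretch 1: ctacgatggt
Inner stretch 2: ctatagtaac
Inner stretch 3: atggtagcta
Inner stretch 4: cagctcgggc
They occurred in 7.92%, 4.51%, 3.98% and 2.60% of distinct in-frame junctions and in 7.08%, 4.23%, 3.57% and 3.94% of out-of-frame ones. Inner stretch 1 was in phase 2, where it reads a tyrosine codon, in 4222 of 4488 in-frame junctions (94.1%), and in 33 of 97 out-of-frame junctions (34.02%). Inner stretch 2 was in phase 2, also with a tyrosine codon, in 2539 of 2555 in-frame junctions (99.4%) and in 9 of 58 out-of-frame junctions (15.5%). Its phase 0, which holds a stop codon, took 6 of 2555 in frame and 19 of 58 out of frame, and its phase 1 took 10 and 30. Inner stretch 3 was in phase 1 in 2196 of 2254 in-frame junctions (97.4%) and in 15 of 49 out-of-frame junctions (30.6%), and its stop phase took 8 of 2254 and 14 of 49. Inner stretch 4 had no phase over 50% in either set, and in the out-of-frame set its 3 phases held 18 junctions each of 54.

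**Figure D4:**
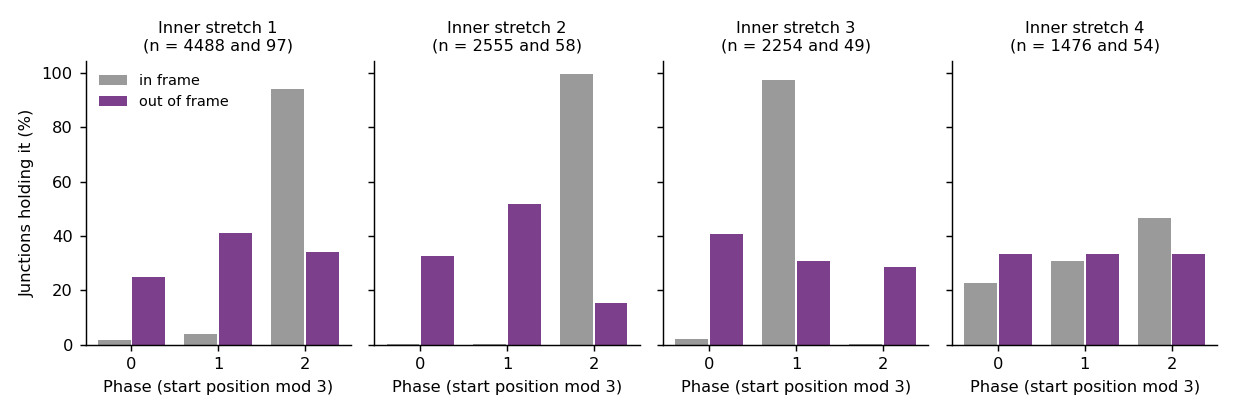
Share of distinct junctions holding each inner stretch (%) by the phase in which the stretch starts, for in-frame (grey) and out-of-frame (purple) junctions, with the numbers of junctions above each panel in that order. For inner stretches 1 to 3 a single phase holds 94.1%, 99.4% and 97.4% of in-frame junctions, and 34.02%, 15.5% and 30.6% of out-of-frame ones.

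Over inner stretches 1 to 3 together, the leading phase held 8957 of 9297 in-frame occurrences (96.3%) and 57 of 204 out-of-frame ones (27.9%). By library the in-frame share stayed between 96.1% and 96.9%. The out-of-frame share was lower in 10 of 11 libraries, and the exception was control SMO replicate 5, with 1 of 1. In the libraries with the most occurrences it was 17 of 47 in control SMO replicate 9 and 11 of 31 in LFPRLR SMO replicate 7, and it was 1 of 17 in control SMO replicate 8. Leaving out members close to an in-frame junction, the leading phase held 37.6%, 15.1% and 34.9% for the 3 stretches. These phases were chosen after their values were seen and are a description.

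Stop codons were far more frequent out of frame. A stop codon in the cysteine frame lay between the cysteine and the tryptophan codon in 368 of 1548 out-of-frame sequences (23.8%) and in 318 of 97354 in-frame ones (0.327%). By library the share was 8.33% to 36.1% out of frame and 0.0783% to 0.788% in frame, with no overlap. Part of this contrast was set by choosing members by frame, since J bases ahead of the tryptophan codon are then read in another frame. The commonest J2 start, tactttgactac, gives the stop codon tga at remainder 1 where these bases are kept, and no stop in frame. The out-of-frame distances themselves were split almost evenly, with 738 at remainder 1 (47.7%) and 810 at remainder 2, and 32.96% to 59.8% at remainder 1 by library. The lowest value was control SMO replicate 8, the library of the 59-base family.

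Cys-to-Trp distance, the number of bases between the 2 codons, had a similar centre and a wider spread out of frame. The median was 34 nucleotides out of frame (quartiles 28 and 40) and 33 in frame (27 and 39). Mean distance per library was 28.9 to 42.2 nucleotides out of frame and 31.4 to 34.2 in frame, a mean difference of 1.11 (SD 3.18; exact sign-flip p = 0.308, adjusted 0.396). Control SMO replicate 8 was highest at 42.2. Without this library the mean difference was 0.29 (adjusted exact p = 0.791), and without its 59-base family its mean was 35.5. The SD of the distance within a library averaged 9.63 nucleotides out of frame and 8.13 in frame (difference 1.49, higher in 10 of 11 libraries, SD 1.59, exact sign-flip p = 0.00391, adjusted 0.0117). LFPRLR SMO replicate 5 was the exception, with 8.24 against 8.55, and without control SMO replicate 8 the difference was 1.11 (adjusted p = 0.0234 by the same exact test). Distances of 48 nucleotides or more made up 8.46% of out-of-frame and 4.25% of in-frame sequences, were more frequent out of frame in 7 of 11 libraries and reached 34.1% in control SMO replicate 8. Without that library they made up 5.11% and 4.16%. Distances of 18 nucleotides or less made up 5.81% of out-of-frame and 6.22% of in-frame sequences. They were more frequent out of frame in 4 of 11 libraries. This cut is uneven, because in-frame distances are whole codons and include 18, which out-of-frame distances cannot take. In pooled bins of 3 nucleotides the out-of-frame share was higher at 12 to 14 (1.68% against 0.261%) and 15 to 17 (2.91% against 2.46%). It was also higher at 18 to 20 (3.62% against 3.50%) and lower at 21 to 23 (5.62% against 6.11%). By J, the pooled mean distance was 37.5 nucleotides out of frame and 35.3 in frame for J1, 30.6 and 30.02 for J2, 34.9 and 31.5 for J3, and 36.2 and 35.7 for J4. J3 holds the 59-base family, and without it the J3 mean was 32.6 out of frame.

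The 4 J segments, Ighj1 to Ighj4, were read from the residues around the J motif, and every out-of-frame sequence received a call. They lie next to each other on chromosome 12, Ighj1 nearest to D and Ighj4 nearest to Cμ. Over libraries, J4 made up 17.2% to 37.7% of out-of-frame sequences (mean 24.5% ± 6.69, SD, n = 11) and 26.5% to 35.3% of in-frame ones (29.1% ± 2.55). It was lower out of frame in 9 of 11 libraries, and the exceptions were control SMO replicate 3 and LFPRLR SMO replicate 5. The mean difference was -4.60 percentage points (SD 5.18; exact sign-flip p = 0.0205, adjusted 0.0461). This call is fragile: leaving out any 1 of 9 libraries, all but control SMO replicate 3 and LFPRLR SMO replicate 5, raised the adjusted exact p to between 0.0527 and 0.0923, and counting distinct junctions gave -3.97 points with an adjusted p of 0.0615. J3 was higher out of frame in 8 of 11 libraries, at 16.7% to 55.3% against 26.1% to 30.02%, a mean difference of 6.25 points (SD 9.24; exact p = 0.0322, adjusted 0.0580). Control SMO replicate 8 held the 55.3%, and without its 59-base family J3 made up 37.5% there. J3 passed the threshold when only full-length members were kept (4.28 points, adjusted exact p = 0.0475) and when control SMO replicate 5 was left out (7.82 points, adjusted exact p = 0.0176). It also passed without LFPRLR SMO replicate 5 (6.94 points, adjusted exact p = 0.0469). With any other tested library left out J3 did not pass, and without control SMO replicate 8 it fell to 4.12 points (adjusted exact p = 0.116). J1 and J2 differed by -0.19 and -1.42 points (exact p = 0.878 and 0.556). The J2 difference ran from -3.04 without control SMO replicate 5 to -0.35 without control SMO replicate 8, and was -4.36 in libraries with 100 or more members (adjusted exact p = 0.0904).

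**Figure D5:**
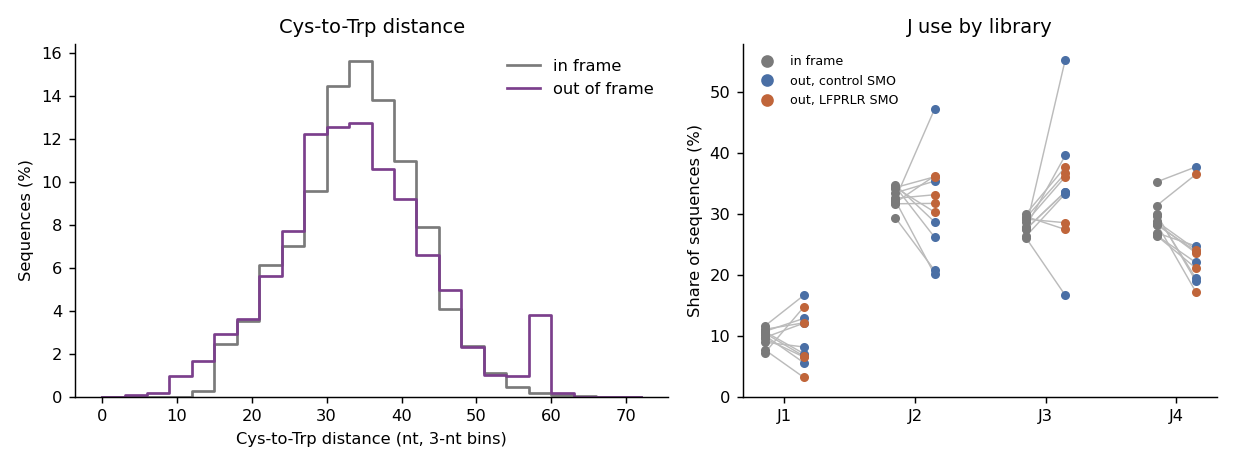
Left, share of sequences (%) by Cys-to-Trp distance in bins of 3 nucleotides, pooled over libraries, for in-frame (grey) and out-of-frame (purple) sequences; the out-of-frame peak at 57 to 59 nucleotides comes mainly from the 59-base family of control SMO replicate 8. Right, share of each J (%) in each of 11 libraries, with grey points in frame joined to coloured points out of frame; J4 is lower out of frame in 9 libraries and J3 higher in 8.

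Out-of-frame junctions matched fewer bases of the V end commonest in frame. The 6 bases that most often follow the cysteine codon in frame were gcaaga. The retained V end is the number of these bases matched in a row. This reference and that of the J start below come from the in-frame set, which was thus scored against its own commonest bases. In frame, 4.52 to 4.91 bases were retained on average by library, and out of frame 2.94 to 4.26, with no overlap. The difference was -0.84 bases (SD 0.35, lower in 11 of 11 libraries, exact sign-flip p = 0.000977, the smallest it can give; adjusted 0.00439). All 6 bases were matched in 46.8% of out-of-frame and 60.6% of in-frame sequences, and none in 16.8% and 10.4%. V segments differ in these bases: O2, O5 and S3 start with ggaag and S2 with acaaa, so the count mixes trimming with V use. The test cannot tell less retention from other V use. The difference was -0.95 bases among sequences that read YYC at the cysteine (adjusted exact sign-flip p = 0.00439). The retained J start, matched against the commonest 12 bases ahead of the tryptophan codon for each J, was 9.31 bases out of frame and 9.74 in frame (difference -0.43, SD 0.72, lower in 9 of 11 libraries, exact p = 0.0674, adjusted 0.101). Without LFPRLR SMO replicate 5 the difference was -0.53 (adjusted exact p = 0.0316).

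The residues up to the cysteine read YFC in place of the common YYC in 11.2% of out-of-frame and 18.2% of in-frame sequences, and the out-of-frame share was the lower in 11 of 11 libraries (5.56% to 18.6% against 12.5% to 25.7%). Base changes within V and V segments of another sequence both enter this share, and they were not told apart.

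None of the 9 frame differences differed between the treatments at the adjusted threshold (exact Mann–Whitney tests on the differences within libraries, n = 6 and 5, lowest p = 0.177, lowest adjusted p = 0.740).

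Few out-of-frame sequences lay close to an in-frame one. An in-frame junction of the same library with more reads was 1 inserted or deleted base away for 94 and 2 away for 69 of the 1556, together 10.5% (3.14% to 21.7% by library). In 43 of the 94 the base lay in a run of 4 or more of the same base. Leaving these members out changed no call between frames other than that of J4, which no longer passed (-4.03 points, adjusted exact p = 0.0791), while J2 moved to -2.93 points without passing.

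Out-of-frame sequences recurred less between libraries. The same full sequence was in another library's table for 171 of 1556 (10.99%) and for 40.4% of in-frame sequences, and the out-of-frame share was the lower in 11 of 11 libraries. Since in-frame sequences had more reads, and 3 pairs of libraries shared 30 or more and 4 pairs 10 to 12 of their 50 commonest sequences, their part in this difference was not tested. A library of the other treatment held 39 (2.51%) and 8.75% respectively. Of 1321 distinct out-of-frame junctions, 1274 were in 1 library, 44 in 2 and 3 in 3. O5 came from control SMO replicates 5, 7 and 8 and S3 from control SMO replicates 4, 7 and 9. S2 came from LFPRLR SMO replicates 4, 5 and 7. Each set holds a pair that shared commonest sequences: control SMO replicates 5 and 7, control SMO replicates 4 and 7, and LFPRLR SMO replicates 4 and 5. A library had to give 3 or more reads to be listed, so these junctions can still occur below the limit in the other group. S2 had 19 reads, all of full length, and S3 had 12 reads, 9 of them with the 39-base form.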

How the data were processed

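Splenic B-cell RNA of 12 mice was amplified with J558 VH and Cμ primers and sequenced on a MiSeq. For each library the authors deposited whole-number read counts per unique nucleotide sequence, not normalized and without molecular identifiers. How reads were merged, trimmed and filtered is not given in the sources used here. Tables of translated sequences were not used.

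Sequences were translated and classified with Python 3.11.15, NumPy 2.4.6 and pandas 2.3.3. On simulated data, 2000 of 2000 sequences given a shift of 1 or 2 bases were classed as out of frame with the right J. The shifts were placed in longer in-frame junctions, away from both codons. Short distances and J motifs ahead of the cysteine were therefore not covered. The members and lists were chosen with earlier results of these data known. Treatments were compared over libraries by the Mann–Whitney *U* test, which the study names, in its two-sided exact form, and frames by a two-sided exact sign-flip permutation test of the difference within each library, in libraries with at least 20 members (for shares, 100 sequences). Benjamini-Hochberg adjustment ran over 8 and 9 comparisons. Named junctions were the 6 with the most reads, the 3 found out of frame in most libraries, the commonest in-frame one and the whole member with the most reads. J names and their order came from the RefSeq table for GRCm38.p6. Since the files name no build, no coordinates are given. Alternatives changed the read limit to 2 or 5, counted junctions once, left out members near in-frame junctions, in other libraries or with an altered Cμ stretch, thinned every library to 130635 reads (20 draws), left out each library, averaged sharing pairs and split libraries into 2 sets by the version of the Cμ end. The second version made up 32.9% to 39.9% of in-frame sequences in one set (control SMO replicates 4, 7 and 9, LFPRLR SMO replicates 3, 4 and 7) and at most 2.18% in the other. Whether the sets were prepared apart is not given in the sources used here.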

Additional observations from a re-analysis of the deposited data

Results flagged for a closer look

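Control SMO replicate 3 stood apart in J4 use: J4 made up 37.7% of its out-of-frame sequences, where the other 5 control SMO libraries lay between 18.99% and 24.8%. Its in-frame sequences also had the highest J4 share of the 11 libraries, 35.3%. Control SMO replicate 5, which had the fewest out-of-frame sequences among the libraries tested (36), stood apart in the retained J start, with a difference between frames of -2.0 bases, where the rest of its group lay between -0.70 and -0.15. Of 34 groups of values examined in this way 2 stood out, and chance alone flags about 1 in 20.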

How the results depend on the processing

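No treatment comparison passed the adjusted threshold under any alternative run. The J1 share, the J2 share and the share with 5 or more reads of members kept their direction under all 25 alternatives run for each, at -5.47 to -0.78, 4.45 to 7.18 and -10.27 to -1.64 percentage points with 1 library left out, while the other 5 turned under at least 5. Ranges with 1 library left out were -0.0798 to 0.37 percentage points (LFPRLR SMO minus control SMO) for the out-of-frame share of sequences, -0.0119 to 0.24 for reads, -1.30 to 2.75 for J3, -0.60 to 1.57 for J4 and -0.81 to 0.51 nucleotides for mean distance. The share of sequences was -0.0255 at a read limit of 5 and -0.37 within library set 1. The share of reads was -0.0828 at a limit of 5, -0.0279 with sharing pairs averaged, -0.0186 as a difference in means and -0.32 within set 1. J3 was -0.71 over distinct junctions, -0.27 without members near in-frame junctions, -0.95 without members found elsewhere, -1.85 with pairs averaged, -1.15 with labels permuted within sets, -2.06 in means and -5.31 within set 1. J4 was -2.24 over distinct junctions, -0.61 and -1.07 without near or shared members, -1.15 with full-length members, -2.47 over their distinct junctions, -1.79 among YYC sequences and -2.78 within set 2. Mean distance was 0.34 nucleotides at a limit of 2 and 0.17 within set 1.

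Same-numbered mice of the 2 groups are different animals, and the deviations of same-numbered libraries correlated at -0.44 to 0.03 over the 8 measures. Measure by measure over 5 pairs, the correlation was 0.81 for the share with 5 or more reads. It was -0.84 for J1, -0.83 for J2 and between -0.45 and 0.30 for the rest. The 4 J shares depend on each other and 5 pairs are few, so whether the numbers mark a shared block cannot be told. With the replicate block over 5 pairs (smallest exact p 0.0625), the J4 difference turned to -1.13 points, the out-of-frame share differed by 0.37 points (exact p = 0.312) and the share with 5 or more reads by -3.37 points (exact p = 0.0625, adjusted 0.5); no call changed.

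Between frames, J1 turned to 0.93 points over distinct junctions, 0.0598 with thinned reads, 0.0357 and 1.03 with full-length members and their distinct junctions and 0.0504 within set 2, and ran from -0.97 to 0.24 with 1 library left out. J3 passed at a limit of 2 (5.62), in libraries with 100 or more members (10.11), with full-length members (4.28) and within set 2 (7.72), with 4.12 to 7.82 when 1 library was left out. J4 failed at a limit of 5 (-11.57), over distinct junctions (-3.97), without near (-4.03) or shared members (-3.23), with thinned reads (-5.14), over distinct full-length junctions (-3.57), among YYC sequences (-3.83), weighted by reads (-5.34) and within set 1 (-3.66), with -5.57 to -3.93 when 1 library was left out. Mean distance passed at a limit of 2 (1.14). The retained J start passed at a limit of 2 (-0.32), in libraries with 100 or more members (-0.48) and within set 2 (-0.47), with -0.53 to -0.27 when 1 library was left out. At a limit of 5 only 4 libraries remained (smallest exact p 0.125), so the SD of distance (2.95) and the retained V end (-1.49) did not pass. Within set 1, of 5 libraries, the smallest exact p is 0.0625, so the SD (1.69), the share with 5 or more reads (-25.60) and the retained V end (-0.95) did not pass. Elsewhere the causes were not tested. At a limit of 5 the share with 5 or more reads has no meaning and too few LFPRLR SMO libraries remained for the treatment tests of members. Full-length members, their distinct junctions, YYC sequences, treatments within sets and the values without control SMO replicate 8 or its family in the descriptions were alternatives chosen after seeing the data.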
